A study of Mus musculus with 12 samples.

Results

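The 59 replication-dependent histone genes of the mouse count table were followed in 12 RNA-seq libraries of embryonic spinal cord cells. They were taken as every gene whose symbol begins with Hist1h, Hist2h, Hist3h or Hist4h, and they are 59 of the 21030 genes listed. By protein class they are 6 linker histones (H1), 14 H2a, 16 H2b, 10 H3 and 13 H4 genes. By genomic cluster, 48 belong to cluster 1, 7 to cluster 2, 3 to cluster 3 and 1 to cluster 4. All are protein coding in the annotation except Hist3h2bb-ps, a processed pseudogene in the H2b class.

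Core histones H2a, H2b, H3 and H4 form the protein spool around which DNA is wound, and H1 binds the DNA between spools. Most genes of these clusters have no introns, are transcribed in S phase, and give mRNAs that end after a conserved stem-loop bound by the protein Slbp in place of a poly(A) tail. Some members are also known to give polyadenylated transcripts in cells that have stopped dividing, and replacement histones such as H3f3a and H2afz are made throughout the cycle from polyadenylated mRNAs.

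Cells were taken from the spinal cord of C57BL/6 embryos (wild type, embryonic day 12), a tissue of dividing progenitors and young neurons, and were grown for 48 hours. All wells carried poly-D-lysine (PDL, 20 µg/ml), a synthetic polymer to which cells attach. Of the 4 groups, PDL had this coat alone, Laminin added laminin at 1 µg/ml, Myelin added membranes of wild-type myelin at 10 µg/ml, and Laminin+Myelin added both, with 3 libraries each. The series examines how the 2 substrates act on the transcripts of these cells. The labels call the libraries biological replicates numbered 1 to 3, without saying whether a number marks a litter, a culture day or a batch, so p-values measure the spread between these libraries. Myelin membranes may carry RNA of their own, and the wells of myelin without cells that the labels mention are not analysed here.

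The libraries held 36061511 to 45024091 counts in genes. Reads outside annotated genes made up 17.4% to 19.4% of all counts on PDL and 8.46% to 13.7% on the other coats, with the lowest share in Laminin replicate 1. Markers of neurons and progenitors were present in all libraries, with Tubb3, a neuronal tubulin, at 991.8 to 1594 CPM (counts scaled by library size) and Sox2, a progenitor transcription factor, at 22.0 to 51.6 CPM. The labels name a TruSeq RNA kit and do not state how mRNA was selected. How the library kit treats RNA without a tail was therefore not tested.

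The 3' ends set apart the ways in which these mRNAs can finish, so the stem-loops and poly(A) signals of the members described most are printed first. A 16-base histone stem-loop was found within 150 bases after the stop codon in 40 of the 58 protein-coding members, in the GENCODE M21 transcripts of build GRCm38. Of the other 18, 13 have annotated transcripts that end within 20 bases of the stop, so the search could not reach one there. The stem-loop began 21 to 58 bases after the stop codon (median 31). It is shown for 6 members in capitals, with 5 bases on each side.
Hist3h2ba (H2b): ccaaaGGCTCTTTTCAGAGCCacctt
Hist3h2a (H2a): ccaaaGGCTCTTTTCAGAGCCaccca
Hist1h1c (H1): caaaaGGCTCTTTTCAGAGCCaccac
Hist1h3g (H3): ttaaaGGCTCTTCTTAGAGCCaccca
Hist1h4i (H4): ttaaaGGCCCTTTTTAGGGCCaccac
Hist1h4d (H4): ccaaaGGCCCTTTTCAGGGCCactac
The first 6 and last 6 capitals are the paired arms. In all 28 stem-loops of the H1, H2a, H2b and H3 genes the arms were GGCTCT and AGAGCC. In the 12 of the H4 genes they were GGCCCT with AGGGCC in 10 and GGTCCT with AGGACC in 2.

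A poly(A) signal, AATAAA or ATTAAA, lay in the last 50 annotated bases of 14 of the 58 protein-coding members, and 12 of these also had the stem-loop. Where the annotation ends at or near the stop, a signal further on would be missed. It is shown in capitals with 12 bases on each side for 5 of the 14, which include the 3 with the most counts.
Hist3h2ba: cataatggtattAATAAAtttggttcaatt
Hist3h2a: aggtatatgcccAATAAAataagagtacgt
Hist2h2be: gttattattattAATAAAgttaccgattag
Hist1h1c: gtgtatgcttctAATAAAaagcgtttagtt
Hist1h4i: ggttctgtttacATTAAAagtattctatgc
In Hist3h2a, whose annotated transcript is 2146 bases long, 1643 bases follow the stem-loop. In Hist3h2ba 169 bases follow it, and in Hist2h2be no stem-loop was found in the 150 bases searched. Among the 40 members with a stem-loop, 21 have over 100 annotated bases beyond it.

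The promoter window used for each member ran from 250 bases before to 50 bases after its RefSeq start on GRCm38.p6, and 53 such windows were matched to 52 members. Motifs were searched on both strands. The CCAAT box was in 45 of the 53 (84.9%, against 37.4% of all 32851 promoters in the table), in every H1, H2a, H2b and H3 window and in 3 of the 11 H4 windows. The letters TATAAA were in 31 (58.5%, against 13.6% of all). The octamer ATTTGCAT was in 6 of 14 H2a and 6 of 14 H2b windows, in no H1, H3 or H4 window, and in 1.74% of all. The letters AAACACA were in 5 of 6 H1 windows and in 7.18% of all. These windows are not independent, since 10 pairs of an H2a and an H2b gene face away from each other with starts within 500 bases. Promoters are printed for Hist3h2ba and Hist3h2a, which hold most of the counts, and for Hist1h1c, the most abundant linker histone gene, with the 4 motifs in capitals on either strand (a match on the opposite strand appears as its reverse complement).
Hist3h2ba, plus strand, chr11:58948661-58948960: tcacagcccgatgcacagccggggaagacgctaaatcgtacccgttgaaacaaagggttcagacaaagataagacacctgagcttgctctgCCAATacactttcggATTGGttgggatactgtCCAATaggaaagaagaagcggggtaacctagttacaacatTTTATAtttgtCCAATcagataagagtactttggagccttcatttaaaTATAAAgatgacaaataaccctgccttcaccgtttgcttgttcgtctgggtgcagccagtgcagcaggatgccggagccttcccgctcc
Hist3h2a, plus strand, chr11:58954435-58954734: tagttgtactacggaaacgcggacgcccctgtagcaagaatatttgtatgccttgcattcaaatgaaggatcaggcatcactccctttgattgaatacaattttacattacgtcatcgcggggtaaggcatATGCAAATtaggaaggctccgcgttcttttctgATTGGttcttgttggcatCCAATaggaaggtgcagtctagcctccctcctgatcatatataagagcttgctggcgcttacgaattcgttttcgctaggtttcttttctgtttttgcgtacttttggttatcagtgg
Hist1h1c, plus strand, chr13:23738557-23738856: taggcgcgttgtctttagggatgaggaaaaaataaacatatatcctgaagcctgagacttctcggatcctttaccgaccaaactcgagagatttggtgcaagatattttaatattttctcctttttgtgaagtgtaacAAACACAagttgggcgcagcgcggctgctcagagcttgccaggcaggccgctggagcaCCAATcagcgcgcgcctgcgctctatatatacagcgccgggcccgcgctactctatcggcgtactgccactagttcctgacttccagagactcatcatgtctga
The Hist3h2ba window held the CCAAT letters 4 times and the TATAAA letters 2 times. The Hist3h2a window held the octamer and 2 CCAAT boxes, and the Hist1h1c window held AAACACA and 1 CCAAT box. A match is a description of these letters and not of a bound site.

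Very little of the RNA counted came from these genes, and nearly all of it from 4 of them. The 59 members together took 0.0172% to 0.0277% of the counts in genes of a library. Over the 12 libraries they had 94744 counts, of which Hist3h2ba held 47156 (49.8%), Hist3h2a 31403 (33.1%), Hist2h2be 8047 (8.49%) and Hist1h2bc 1779 (1.88%). These 4 held 93.3% of the counts, and no other member held over 0.74%, with Hist1h4i next at 0.731%. A member's median count per library was 5 in the middle of the list, 7 members averaged above 1 CPM, and 52 averaged under it. In libraries of this depth 3 counts, taken as the limit that a count of 0 allows, are 0.0666 to 0.0832 CPM, and this covers counting error only.

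Scaled to transcript length, Hist3h2ba, an H2b gene, was at 158.9 CPM per kb (range over libraries 126.8 to 261.9). Its neighbour Hist3h2a was at 30.4 (23.2 to 44.3), Hist2h2be, another H2b gene, at 6.40 (5.79 to 6.98), and Hist1h2bc at 3.20 (2.41 to 4.86). The ranges of these 4 do not overlap from each member to the next in this order. Hist3h2bb-ps followed at 2.32 CPM per kb (1.43 to 3.22), which overlaps Hist1h2bc, and it shares 50-base stretches with Hist3h2ba (22.1% of those of Hist3h2ba), so the counts of these 2 genes are uncertain to that extent. The 14 members with a poly(A) signal at the annotated end had a median of 0.490 CPM per kb and the 44 without one 0.200. The 44 include the 13 whose annotated transcripts end within 20 bases of the stop, where a signal further on would be missed. Among these 13 is Hist2h2ab at 1.74 CPM per kb. The 2 groups thus also differ in how much of the 3' end is annotated, which sets the length used for scaling. The plot of levels per kb shows that members with a signal were also among the lowest, such as Hist4h4 at 0.0219 CPM per kb.

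**Figure D1:**
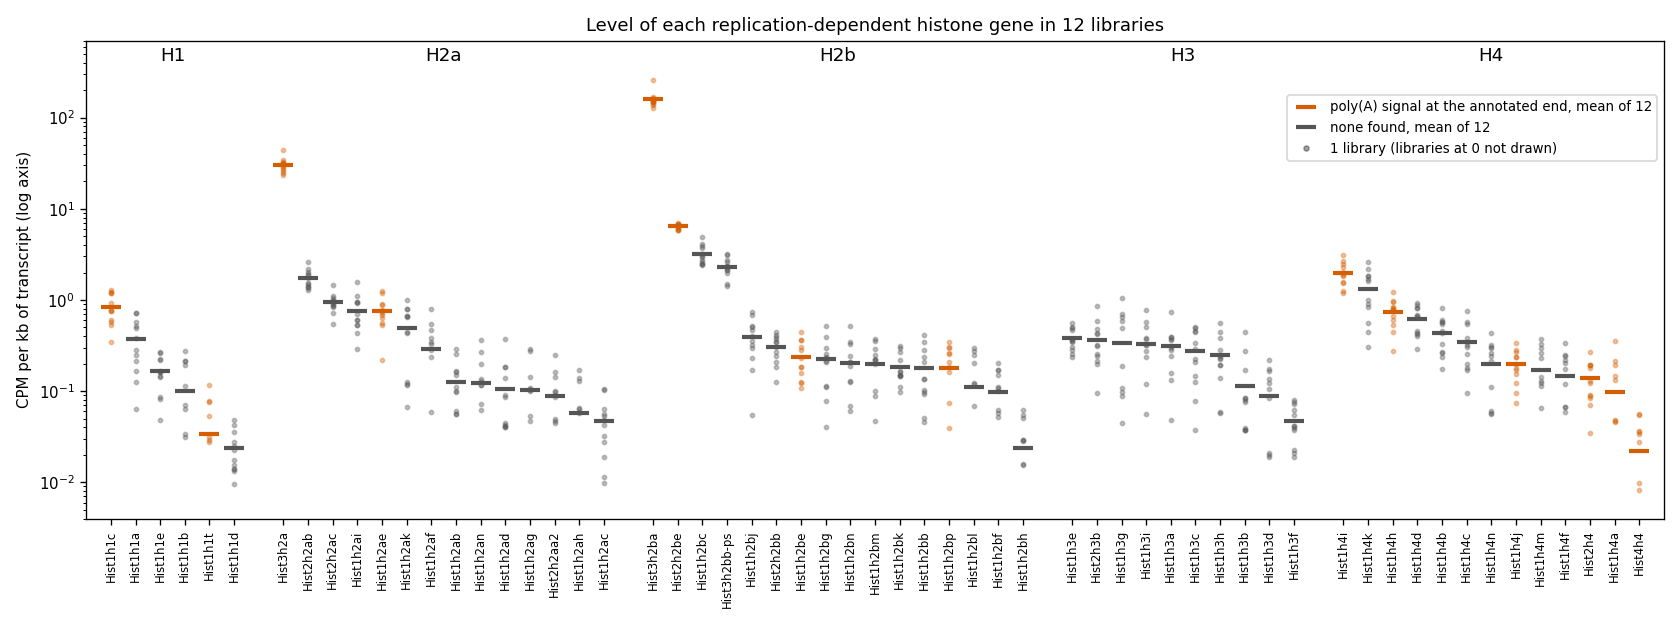
CPM per kb of annotated transcript (log axis) for each of the 59 members, grouped by class; points are the 12 libraries (values of 0 not drawn), bars the mean of 12, and colour marks a poly(A) signal in the last 50 annotated bases. Hist3h2ba and Hist3h2a stand above the rest, and the 10 H3 genes lie between 0.0474 and 0.379 CPM per kb.

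Copies of these genes are alike in sequence, which limits what single members show. In 24 of the 59, over 50% of the 50-base stretches of the transcript also occur in another gene's transcript. Genes that overlap a member in the annotation were left out of this search. All 24 averaged under 1 CPM, with a median of 0.200 CPM per kb. Of the other 35 members 28 also averaged under 1 CPM, and the median of the 35 was 0.2395 CPM per kb. Reads that aligned to several places, 11.5% to 13.6% of all counts, were not assigned to genes. Hist2h2be, Hist1h1a, Hist1h1b, Hist1h1t and Hist2h2bb share no such stretch with a gene that does not overlap them. The annotation overlaps 19 members with another gene, among them Hist3h2a with Trim17 on the same strand, a gene that averaged 7.37 CPM.

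Within the H1 class, which compacts the DNA between nucleosomes, Hist1h1c led with 0.540 to 2.02 CPM in the 12 libraries. Hist1h1e was at 0.0924 to 0.525 CPM and Hist1h1a at 0.0470 to 0.531 CPM. The testis linker histone gene Hist1h1t had 0 counts in 5 libraries and at most 4 in the others.

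In the H2a class Hist3h2a was at 49.8 to 94.97 CPM, while Hist2h2ab was at 0.568 to 1.17 and Hist1h2ae at 0.156 to 0.885 CPM. The other 11 H2a genes averaged 0.0232 CPM (Hist1h2ah) to 0.491 CPM (Hist2h2ac). In the H2b class Hist3h2ba was at 77.8 to 160.8 CPM, Hist2h2be at 15.2 to 18.3 and Hist1h2bc at 2.79 to 5.62 CPM. The other 13 H2b genes averaged 0.0400 CPM (Hist1h2bh) to 1.079 CPM (Hist3h2bb-ps). The level of Hist2h2be moved least, and all 12 of its libraries lay between 588 and 754 counts.

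The H3 class had no member above 1 CPM. Hist1h3e was at 0.199 to 0.473 CPM, Hist2h3b at 0.0462 to 0.420 and Hist1h3g at 0 to 0.552 CPM, and the other 7 averaged 0.0598 CPM (Hist1h3f) to 0.175 CPM (Hist1h3c). In the H4 class Hist1h4i was at 0.869 to 2.27 CPM, Hist1h4d at 0.329 to 1.05 and Hist1h4k at 0.0940 to 0.821 CPM. The other 10 averaged 0.0534 CPM (Hist1h4a) to 0.348 CPM (Hist1h4h).

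The first comparison asks what the coats did to these genes. No member passed the test between any coats, whichever of the 10 coat comparisons was made. The test was edgeR's quasi-likelihood test on all 12 libraries with Benjamini-Hochberg adjustment over the 15737 genes tested, 24 of them members, and 35 members had too few counts to enter. Of all genes tested, 2.29% were called with Myelin against PDL, 1.25% with Laminin+Myelin against PDL and 0% with Laminin against PDL. The share was 6.34% for the 9 coated libraries against PDL, 0.0254% for Myelin against Laminin and for the myelin effect averaged over laminin, 0.0191% for Laminin+Myelin against Laminin, and 0% for the other 3 comparisons. A count of 0 among 24 members is near these shares. At an unadjusted p under 0.05 edgeR gave 2 members with Laminin against PDL, 1 with Laminin+Myelin against Laminin, 1 with all coated libraries against PDL and 0 in the other 7. Of all 15737 genes, 2735, 201 and 3744 had such a p in the first 3 of these, and 29 to 2747 in the other 7. DESeq2 also called 0 members in each of the 10. Of the 15737 genes it called 66 higher and 485 lower with Laminin against PDL, 167 and 921 with Myelin, and 158 and 823 with Laminin+Myelin. For all coated libraries against PDL it called 409 higher and 1343 lower. At an unadjusted p under 0.05 it gave 1 member with Laminin against PDL (2886 of all genes). It also gave 1 in each comparison of myelin-coated wells with Laminin (305 genes for Myelin, 240 for Laminin+Myelin). The fit of all 59 members with no filter on low counts called 0 as well. Of all 21030 genes that fit called 20 higher and 268 lower with Myelin against PDL. It called 41 higher and 754 lower for all coated libraries against PDL, and 0 with Laminin against PDL.

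With the replicate number as a block many more genes were called between coats and almost no members. The share of all genes called was then 24.8% for the 9 coated libraries against PDL, 14.4% for Myelin against PDL and 13.6% for Laminin+Myelin against PDL, each with 0 of the 24 members called. It was 8.15% for Laminin against PDL, with 1 member called. The other shares were 8.63% for the myelin effect averaged over laminin, 0.114% for Myelin against Laminin, 0.102% for Laminin+Myelin against Laminin and 0% for the other 3 comparisons, with 0 members called in each. In the blocked fit 0 to 3 members had an unadjusted p under 0.05 in a comparison, against 155 to 6485 of the 15737 genes tested. For the 9 coated libraries against PDL these were 2 members and 6485 genes. In the 3 comparisons with the highest shares the members' share was thus below that of all genes, a difference that was not tested. The members and all genes were not matched for level, and 52 of the 59 members averaged under 1 CPM, where changes are harder to call.

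Hist3h2ba was at 90.9, 91.4 and 77.8 CPM in PDL replicates 1, 2 and 3, and at 160.8, 100.3 and 97.5 CPM on Laminin. It was at 102.8, 83.7 and 92.3 CPM on Myelin and 93.7, 86.0 and 93.4 CPM on Laminin+Myelin. All 3 Laminin libraries lay above all 3 PDL libraries, and Laminin replicate 1 stood far above the other 11 libraries.

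Between Laminin and PDL the log2 fold change of Hist3h2ba was 0.46 ± 0.17 (SE; n = 3 and 3; edgeR adjusted p = 0.223). With the replicate number as a block it was 0.44 ± 0.12 and passed (edgeR adjusted p = 0.0483), the only member called in a coat comparison in that fit, in which 2.66% of all genes were called higher. That call was lost without Laminin replicate 1 (0.24 ± 0.08, adjusted p = 0.0870, edgeR) and without each PDL replicate (adjusted p = 0.239, 0.0851 and 0.0852 without replicates 1, 2 and 3). It was kept without Laminin replicate 2 (0.0262) or 3 (0.0371), and no member was called with the block and no filter on low counts. The authors' deposited table gives 0.47 and an adjusted p of 0.212 for this comparison.

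Laminin replicate 1 also had the lowest share of reads outside genes (8.46%) and its highest levels of several other genes, histone or not, whose part in the value of Hist3h2ba was not tested. H2afz, an H2a variant, was at 184 CPM there and at 104.5 to 136.9 CPM in the other 11 libraries. H3f3a, which encodes the H3.3 variant, was at 680 CPM there and at 412.8 to 513.8 CPM elsewhere. Pcna, the replication clamp, was at 72.9 CPM there and at 42.8 to 58.6 elsewhere, and Tubb3 at 1594 CPM there and at 991.8 to 1415 elsewhere.

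Hist3h2a was at 68.2, 63.3 and 49.8 CPM in PDL replicates 1, 2 and 3, and at 94.97, 69.3 and 61.6 CPM in the Laminin libraries. The Myelin libraries had 74.3, 58.1 and 52.9 CPM and the Laminin+Myelin libraries 67.5, 55.95 and 65.8. As groups, every coat overlapped PDL, while within replicate numbers Laminin was above PDL in 3 of 3 pairs. Its log2 fold change from PDL was 0.32 ± 0.18 on Laminin (adjusted p = 0.384), 0.03 ± 0.18 on Myelin (0.958) and 0.06 ± 0.18 on Laminin+Myelin (0.905, edgeR). With the block the Laminin value was 0.30 ± 0.10 and did not pass (edgeR adjusted p = 0.0769). For Hist2h2be the values were 0.01 ± 0.09, -0.08 ± 0.09 and -0.11 ± 0.09 in the same order (adjusted p = 0.973, 0.727 and 0.619), from a PDL mean of 17.3 ± 1.07 CPM (SD, n = 3).

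**Figure D2:**
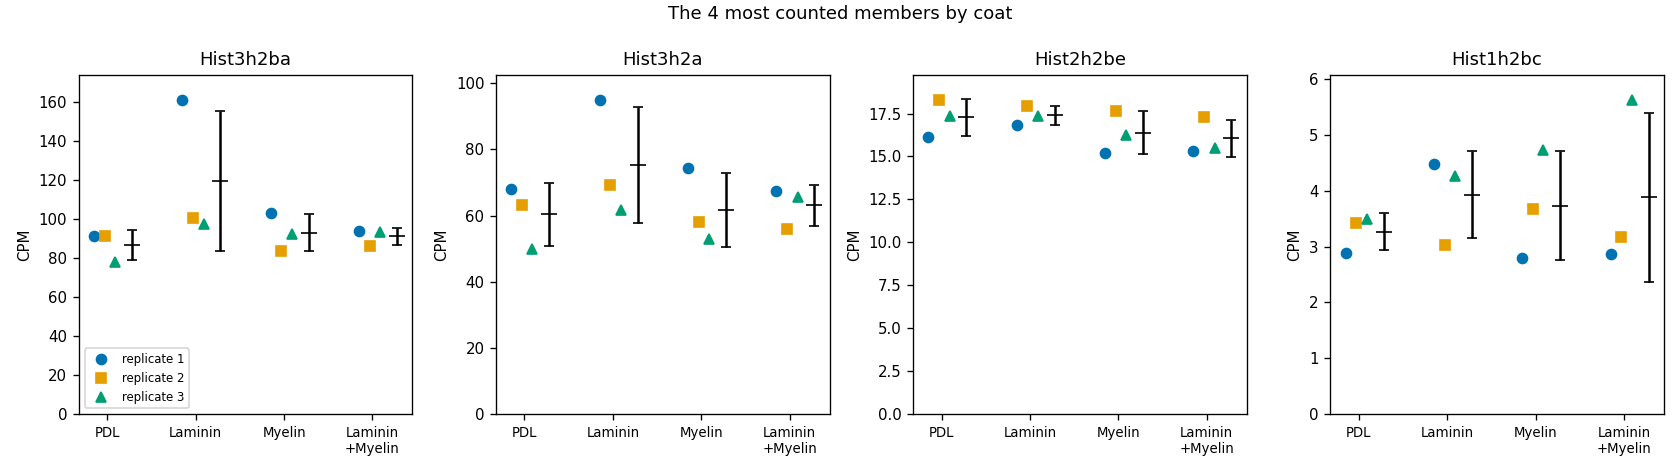
CPM (from 0) of the 4 members with the most counts in each library, by coat; symbols mark the replicate number, and the bar beside them is the mean with the SD of 3 libraries. Laminin replicate 1 is the highest library for Hist3h2ba (160.8 CPM) and Hist3h2a (94.97 CPM), and Hist2h2be stays between 15.2 and 18.3 CPM.

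Summed over all members of a class, detected or not, each coat overlapped PDL except Laminin in the H2b class. H1 was at 2.12 ± 0.81 CPM (SD, n = 3) on PDL and 2.00 to 2.41 on the other coats, H3 at 1.69 ± 0.79 against 1.21 to 1.69, and H4 at 4.17 ± 0.99 against 3.83 to 4.25. H2a was at 63.2 ± 9.06 CPM on PDL, with 78.3 ± 17.5 CPM for Laminin, 64.2 ± 10.8 for Myelin and 66.0 ± 5.92 for Laminin+Myelin. H2b was at 110 ± 7.47 CPM on PDL, and the other sums were 144 ± 35.4 CPM (Laminin), 116 ± 7.42 (Myelin) and 113 ± 4.30 (Laminin+Myelin). The H2b sums were 184.5, 124 and 122.3 CPM in the Laminin libraries and 112.5, 116 and 101.7 CPM in the PDL libraries, without overlap. Without Hist3h2ba the H2b sum was 23.4 ± 1.58 CPM on PDL and 24.0 ± 0.69 on Laminin.

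The second comparison sets libraries of different replicate number against each other within coats. The fit has coat and number as terms and 4 libraries per number. The 4 libraries of a number come from the 4 coats, so the p-values measure how evenly a difference repeats across coats. If a number marks a single preparation, which the labels do not say, these p-values hold no spread between preparations. All rises among the 24 members tested, of which 17 belong to cluster 1, were of cluster 1 genes, lower in replicate 1 than in replicate 2 or 3. The falls were of Hist3h2a and, between 1 and 3 only, Hist3h2ba, both of cluster 3. Between numbers 3 and 1, 10 of the 24 members tested rose and 2 fell, where 23.1% of all genes tested rose and 20.8% fell. Between 2 and 1, 6 rose and 1 fell (11.4% and 7.35% of all genes), and this count of 7 was 4, 3, 1, 3, 2 and 3 without PDL 1, PDL 2, Laminin 2, Myelin 1, Laminin+Myelin 1 and Laminin+Myelin 2. The count of 12 between 3 and 1 was 8 without Myelin 1 or Myelin 3. Between 3 and 2, 0 members were called by edgeR or DESeq2 (9.14% and 6.45% of all genes by edgeR, 1533 and 1155 of 15737 genes by DESeq2). By either tool 3 members had an unadjusted p under 0.05, as did 4483 genes by edgeR and 4242 by DESeq2. The edgeR count of 0 called members was 1 without PDL 2, PDL 3 or Laminin 1. A member passes the count filter more readily if some libraries hold many counts, so the 24 do not stand for the 59. With no filter, 17 of 59 rose and 1 fell between 3 and 1 (18% and 15.7% of all 21030 genes), and 8 rose and 1 fell between 2 and 1 (8.64% and 5.72%). In that fit the change from 1 to 3 was above 0 in 52 of the 59 members and in 52.6% of all genes.

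The fit with no filter added members with very few counts, chosen here after their values were seen. Hist1h2af, an H2a gene, had 0, 0, 0 and 1 counts in replicate 1 of PDL, Laminin, Myelin and Laminin+Myelin. It had 5, 6, 4 and 4 in replicate 2 and 12, 6, 9 and 7 in replicate 3, so replicate 1 did not overlap the others. Hist1h3d, an H3 gene, had 1, 0, 1 and 0 counts in replicate 1 of these coats, 4, 6, 6 and 1 in replicate 2, and 8, 12, 9 and 5 in replicate 3. Replicate 3 lay above all of replicate 1. Both were called in that fit between 3 and 1 (edgeR adjusted p = 0.000496 and 0.000966), but a fold against so few counts is not given.

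Hist1h2ak, an H2a gene, had 1, 2, 2 and 2 counts in replicate 1 of PDL, Laminin, Myelin and Laminin+Myelin, that is 0.0260 to 0.0494 CPM. It had 0.394, 0.177, 0.171 and 0.262 CPM in replicate 2 of the same coats, and 0.315, 0.253, 0.314 and 0.264 CPM in replicate 3. Replicate 1 lay below the other 8 libraries without overlap. The log2 fold change was 2.67 ± 0.46 between 3 and 1 (edgeR adjusted p = 0.000486) and 2.46 ± 0.48 between 2 and 1 (0.00332), on few counts. Near-identical copies make several of these counts uncertain: 52.3% of the 50-base stretches of Hist1h2ak, 71.5% of those of Hist1h4k, 54.1% of those of Hist1h3g and 79.7% of those of Hist1h2af occur in other genes too.

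Hist1h4k, an H4 gene, was at 0.261, 0.139, 0.173 and 0.0940 CPM in replicate 1 of the 4 coats in that order, at 0.578, 0.506, 0.285 and 0.309 in replicate 2, and at 0.577, 0.530, 0.821 and 0.686 in replicate 3. Replicate 1 was again below the other 8 libraries. It rose by 1.98 ± 0.35 between 1 and 3 (edgeR adjusted p = 0.000680) and by 1.34 ± 0.38 between 1 and 2 (0.0273). The second call was lost without Laminin 2, Laminin+Myelin 1, Myelin 1 or PDL 2 (adjusted p = 0.0709 to 0.0910).

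Hist1h3g, an H3 gene, had 2, 0, 0 and 2 counts in replicate 1 of these coats, 21, 4, 2 and 1 in replicate 2, and 13, 16, 13 and 10 in replicate 3. Replicate 3 did not overlap replicate 1, and replicate 2 spanned both, with PDL the highest. The log2 fold change was 3.65 ± 0.86 between 3 and 1 (edgeR adjusted p = 0.00339) and 2.64 ± 0.98 between 2 and 1 (0.0673). Its size is uncertain, since replicate 1 held at most 2 counts a library. Hist1h3g reached 10 counts only in replicate 3 and PDL replicate 2, so it entered the test through libraries where it was high.

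Hist1h1c, a linker histone gene, was at 0.834, 0.948, 0.888 and 0.540 CPM in replicate 1, at 2.02, 1.85, 1.22 and 1.17 in replicate 2, and at 1.18, 1.45, 1.86 and 1.90 in replicate 3. Replicate 1 did not overlap the others. It rose by 1.01 ± 0.26 between 1 and 3 (edgeR adjusted p = 0.00744), as did Hist1h1a by 1.73 ± 0.44 (0.00669) and the H4 gene Hist1h4d by 1.02 ± 0.24 (0.00465). Between 1 and 2 Hist1h1a rose by 1.62 ± 0.45 (0.0241). That call was lost without any of Laminin 1, Laminin 2, Laminin+Myelin 1, Laminin+Myelin 2, Myelin 1 or Myelin 2 (0.0602 to 0.0842).

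Hist3h2a fell by 0.40 ± 0.09 on the log2 scale between 1 and 3 (edgeR adjusted p = 0.00363). Its replicate 1 libraries held 67.5 to 94.97 CPM and its replicate 3 libraries 49.8 to 65.8 CPM, without overlap, and replicate 2 held 55.95 to 69.3. The fall of 0.30 ± 0.09 between 1 and 2 (0.0384) was lost without 7 of the 12 libraries in turn (0.0557 to 0.131; Laminin 1 and 2, Laminin+Myelin 2, Myelin 1, 2 and 3, and PDL 1). Hist3h2ba fell by 0.28 ± 0.11 between 1 and 3 (0.0460). This call was lost without 6 of the 12 libraries in turn (Laminin 1 and 3, Laminin+Myelin 2, Myelin 1 and 3, and PDL 3; 0.0565 to 0.179) and with no filter on low counts (0.0507). Trim17, which overlaps Hist3h2a, was lower in replicate 1 (3.79 to 6.80 CPM) than in the other 8 libraries except Myelin 2 (6.49 CPM), and its part in the counts of Hist3h2a was not tested.

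Of the 12 calls between 3 and 1, 7 held under each of the 15 alternatives tried: the rises of Hist1h2ak, Hist1h4k, Hist1h3g, Hist1h4d, Hist1h1a and Hist1h1c and the fall of Hist3h2a. Of the 7 calls between 2 and 1, only the rise of Hist1h2ak did. The other rises between 3 and 1 were Hist1h1e (1.27), Hist1h4h (0.89), Hist1h4i (0.72) and Hist1h2bc (0.47), and the others between 2 and 1 were Hist1h1d (1.27), Hist1h2be (1.25) and Hist1h1c (0.96). Each of these 7 lost its call without at least 1 library. Among the called members, Hist1h2ak, Hist1h1a, Hist1h1d and Hist1h3g reached 10 counts only in libraries of replicates 2 and 3. They thus entered the filtered test through libraries where they were high.

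**Figure D3:**
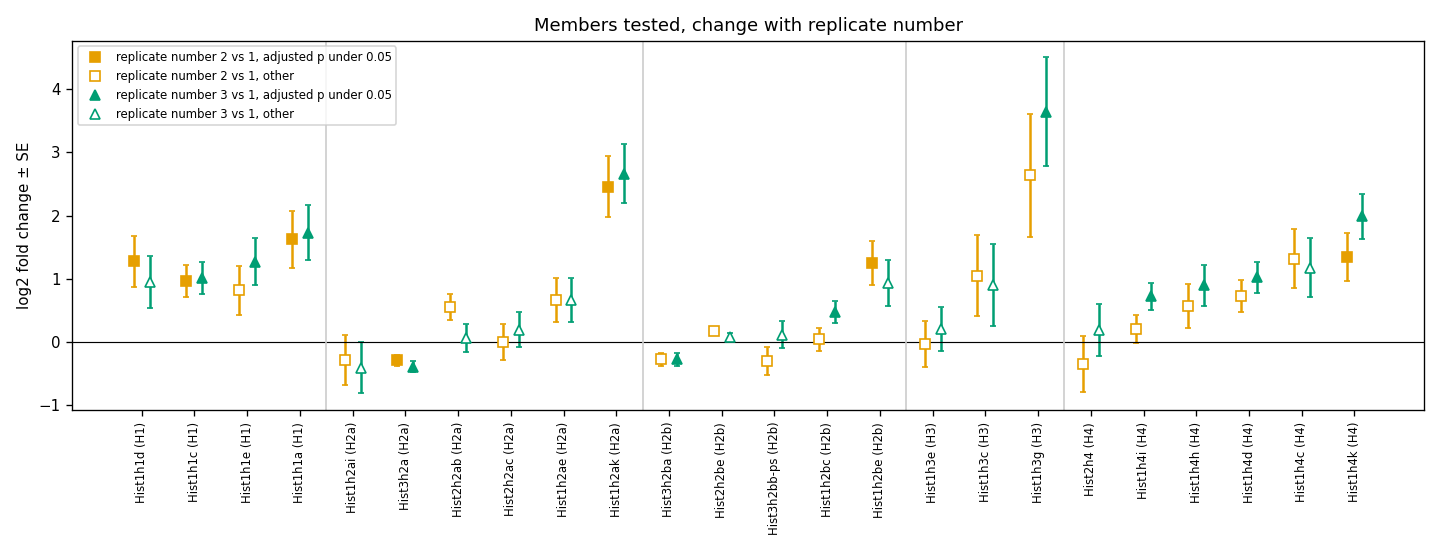
Log2 fold change with its SE between replicate numbers for the 24 members tested, ordered by class and size; squares are 2 against 1, triangles 3 against 1, and filled symbols passed an adjusted p of 0.05. The 4 H1 genes lie above 0 in both comparisons, and Hist3h2a and Hist3h2ba lie below 0 in both.

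The summed levels of H1, H3 and H4 were lowest in replicate 1, and those of H2a and H2b highest, as values with no test. The summed H1 level was 1.20 ± 0.26 CPM (SD over 4 coats) in replicate 1, 2.59 ± 0.47 in replicate 2 and 2.81 ± 0.41 in replicate 3. H3 was at 0.930 ± 0.075, 1.72 ± 0.67 and 1.83 ± 0.28 CPM, and H4 at 2.75 ± 0.57, 4.07 ± 0.56 and 5.40 ± 0.57. In each of these 3 classes replicate 1 was the lowest library of its coat in 4 of 4 coats. H2a was instead at 78.4 ± 13.3, 64.9 ± 6.22 and 60.5 ± 7.63 CPM and H2b at 133 ± 34.4, 114 ± 7.34 and 114.5 ± 8.93. The H2b difference rests on Laminin replicate 1: without it the log2 ratio was -0.025 (2 against 1) and -0.022 (3 against 1), from -0.22 in both. Without Hist3h2a the H2a sums were 2.17 ± 0.48, 3.24 ± 0.38 and 3.03 ± 0.46 CPM, and without Hist3h2ba the H2b sums were 21.3 ± 1.76, 23.9 ± 0.70 and 24.3 ± 0.41. Replicate 1 was then the lowest in 3 of 4 coats in both classes, the exception being Laminin.

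**Figure D4:**
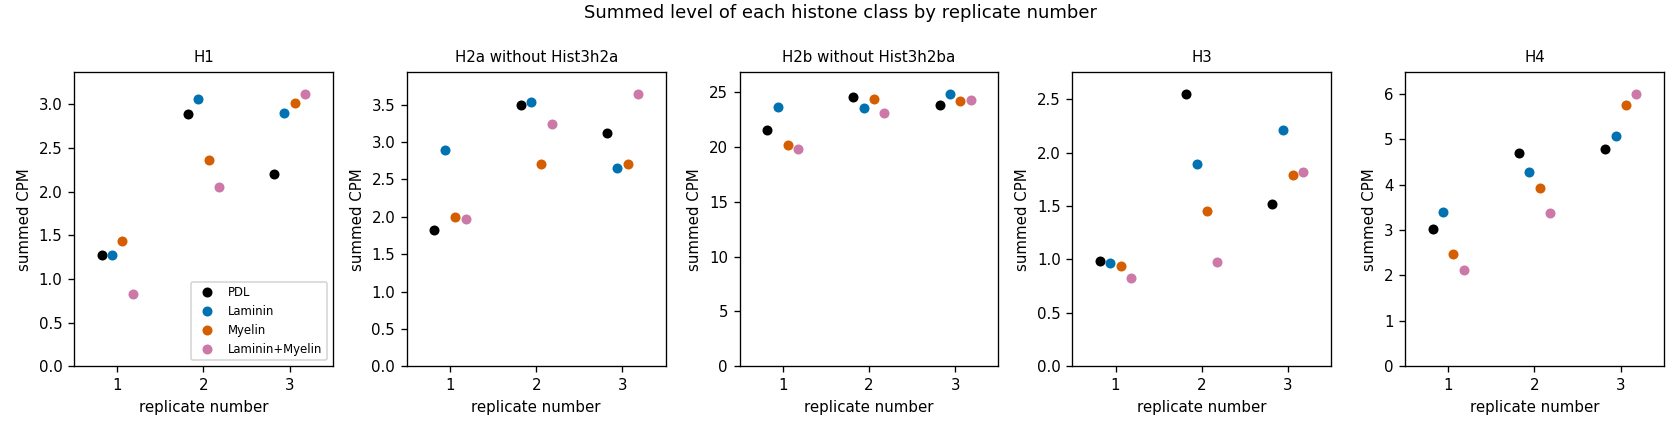
Summed CPM (from 0) of each histone class by replicate number, with colour for the coat; H2a is drawn without Hist3h2a and H2b without Hist3h2ba, which set those sums. Replicate 1 is the lowest of its coat in 4 of 4 coats for H1, H3 and H4.

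The number of members detected followed the same split, with 45 to 51 of 59 in replicate 1 libraries and 53 to 59 in the other 8. Over all genes, 17870 to 18230 were detected in replicate 1 libraries and 18170 to 19112 in the others. Reads outside genes made up 17.4%, 8.46%, 10.8% and 11% of counts in replicate 1 of PDL, Laminin, Myelin and Laminin+Myelin. They made up 19.4%, 13.2%, 10.8% and 11.9% in replicate 2 of these coats, and 17.5%, 13.7%, 12.4% and 11.7% in replicate 3. The part of such reads in the members' changes was not tested. Outside the 4 members with the most counts, the other 55 summed to 7.33 to 10.9 CPM in replicate 1, 12.3 to 16.6 in replicate 2 and 14.6 to 17.7 in replicate 3. The Hist3 pair took 84.7% to 88.8% of the members' counts in replicate 1 and 78.3% to 82.3% in the others. At these depths the 95% Wilson interval of the lowest share, in PDL replicate 3, ran from 77.2% to 79.3%. In bulk RNA, fewer cells of a type and less RNA per cell cannot be told apart.

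Other gene groups moved with the number too, and their part in the members' changes was not tested. For comparison, 11.4% of all genes tested rose between 1 and 2, 23.1% between 1 and 3 and 9.14% between 2 and 3. Of 22 S phase genes such as Mcm2 to Mcm7 and Pcna, the replication clamp, 12 rose between 1 and 3 (median log2 change 0.26) and 0 between 1 and 2 (median -0.01). Of 18 genes of G2 and mitosis, 17 rose between 1 and 3 (median 0.72) and 2 between 1 and 2 (median 0.09). Between 2 and 3, where no member was called, 9 of the S phase genes and 16 of the mitotic genes rose. Mki67, a marker of cycling cells, rose by 0.77 ± 0.11 between 1 and 3 (edgeR adjusted p = 0.000154), and its change was 0.05 ± 0.11 between 2 and 1 (0.801).

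RNAs that lack a poly(A) tail, mainly small nucleolar and Cajal body RNAs, formed a list of 113, of which 111 were in the table and 64 were tested. Between 1 and 2, 19 of the 64 rose (median 0.73), between 1 and 3, 38 rose (median 0.97), and between 2 and 3, 1 rose (median 0.20). None fell in the 3 comparisons. Of all genes tested 11.4%, 23.1% and 9.14% rose in the same order. Summed, the list was at 25.7 to 45.0 CPM in replicate 1, 41.4 to 66.9 in replicate 2 and 53.8 to 68.5 in replicate 3, with replicate 1 the lowest in 4 of 4 coats. With Laminin against PDL, 7 of the 64 had a change above 0 (median -0.56) and 0 were called. The medians were -0.47 with Myelin and -0.50 with Laminin+Myelin, also with 0 called. With the replicate block 5 of the 64 fell with Laminin, 12 with Myelin and 7 with Laminin+Myelin. Of all 15737 genes 863, 1581 and 1457 fell in the same fits, and whether the list differs from them was not tested.

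Markers of other cells that the cord can hold also differed by number. All 5 red blood cell genes tested rose between 1 and 2 and between 1 and 3, from a sum of 73.5 to 113 CPM in replicate 1 to 129 to 262 in replicate 2 and 209 to 326 in replicate 3. All 10 microglial genes rose in both comparisons, from 27.5 to 31.5 CPM to 57.0 to 87.9 and 81.3 to 137 CPM. Between 2 and 3, 0 of the 5 red blood cell genes were called (median 0.24) and 9 of the 10 microglial genes rose (median 0.67). Of 9 endothelial and mesenchymal genes, 3 rose and 3 fell between 1 and 3 (median -0.35). Between 1 and 2, 2 of them rose and 4 fell (11.4% and 7.35% of all genes). Their sum was 31.2 to 38.0 CPM in replicate 1, 24.0 to 33.3 in replicate 2 and 23.3 to 32.0 in replicate 3. Of 12 progenitor genes 10 rose between 1 and 3, and of 12 neuronal genes 11 fell (23.1% and 20.8% of all genes). The summed level of each list was above 0 in all libraries.

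**Figure D5:**
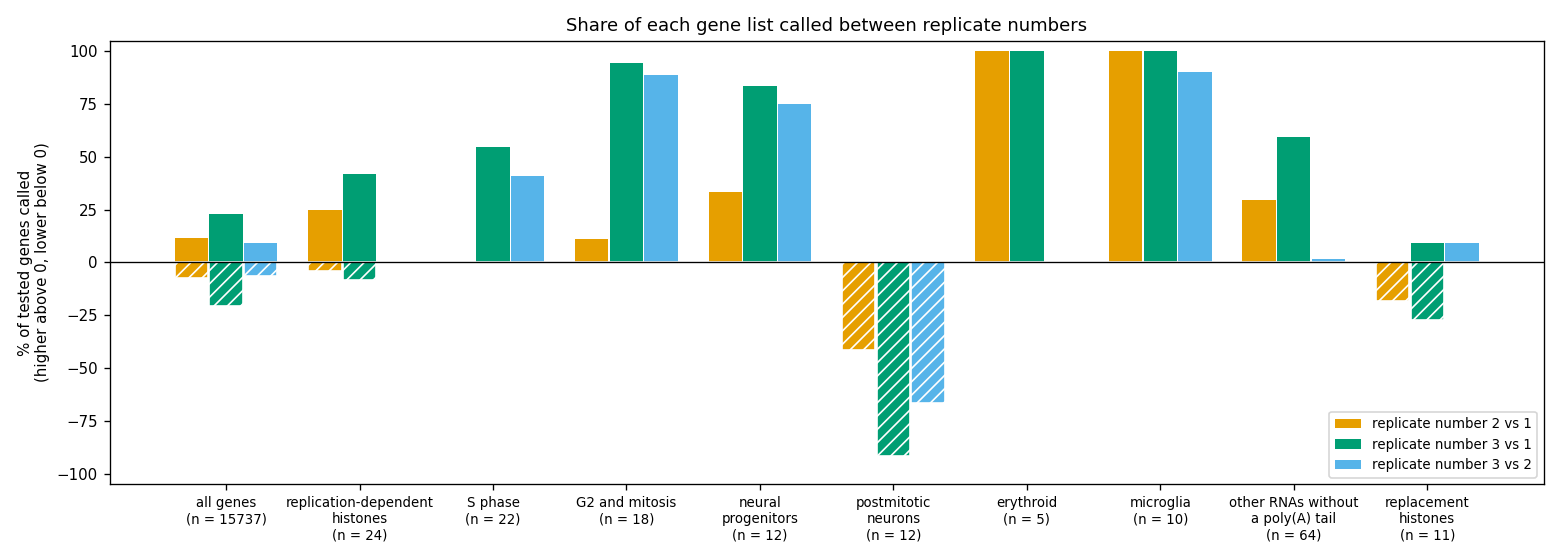
Percent of the genes tested in each list that were called higher (above 0) or lower (below 0, hatched) between replicate numbers, with all 15737 genes at the left. The histone genes and the erythroid list have bars for 2 against 1 and 3 against 1 only. The other RNAs without a poly(A) tail reach 1.56% for 3 against 2, and the S phase list has bars for 3 against 1 and 3 against 2 only.

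Genes that make, process or replace these histones were called in both directions between 1 and 3, where 23.1% of all genes rose and 20.8% fell. Of 19 genes for histone pre-mRNA processing and transcription, 3 rose and 3 fell between 1 and 3. Slbp, the stem-loop binding protein, rose by 0.25 ± 0.09 (edgeR adjusted p = 0.0333) from 33.1 to 48.2 CPM in replicate 1 to 45.2 to 48.4 in replicate 3. Lsm11, of the U7 particle that cuts histone pre-mRNA, fell by 0.25 ± 0.05 (0.00160), and Npat, which activates histone gene transcription, had a change of 0.13 ± 0.07 (0.152).

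Of 11 replacement and linker histones outside the clusters, 1 rose and 3 fell between 1 and 3. H2afx, which marks DNA breaks, fell by 0.26 ± 0.10 (edgeR adjusted p = 0.0484), and H1f0, a linker histone of resting cells, had a change of -0.04 ± 0.09 (0.735). H3f3b, which encodes H3.3, had a change of 0.11 ± 0.09 (0.344), and the levels of H2afz and H3f3a changed by -0.03 ± 0.11 (0.869) and -0.09 ± 0.10 (0.504). Of 16 histone chaperone genes, 3 rose and 2 fell.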

How the data were processed

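RNA from 12 libraries (4 coats, 3 each) was sequenced as paired-end TruSeq libraries, per the labels' protocols. The authors deposited whole-number counts per gene, without normalization. CASAVA 1.8.2, edgeR (version not stated) and the builds mm10 and GRCm38 appear in the submitters' processing notes. Which aligner, counting program and strand setting were used is not given in the sources used here. From the authors' deposited table of comparisons, a log2 fold change and an adjusted p-value are quoted for 1 gene. The authors' normalized counts, deposited as a score with no stated scaling, were not used. Of 21033 entries, 3 name no gene (reads outside genes, 8.46% to 19.4% of counts; aligned to several places, 11.5% to 13.6%; matching several genes, 0.579% to 0.717%) and entered neither library sizes nor tests.

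Levels are CPM scaled by TMM factors. Tests used edgeR 4.0.16 in R 4.3.3 with limma 3.58.1 (quasi-likelihood, robust, filterByExpr), adjusted by Benjamini-Hochberg over all genes tested, at 0.05. Values after ± are standard errors for log2 changes and standard deviations for levels. The standard error was derived from the test, as the change before edgeR's shrinkage over the square root of the F statistic. The change printed beside it is the shrunken one, so the 2 can differ in scale at low counts. Coats were fitted without a block. Same-numbered libraries deviated together (r = 0.113 to 0.917 in all 18 pairs, against -0.863 to 0.262 in 36 others, on log2 CPM with a prior count of 2; 12 of 12 libraries were most like one of their own number), so the numbers were taken as pairing from the counts, not from the labels, and the blocked value is given where it changes a call. The script was tested on simulated counts.

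Alternatives were DESeq2 1.42.0, RLE size factors, no filter, the block, and each library left out; the block with a library left out and the block with no filter were added after seeing the data. Members, lists, tests and rules were chosen with earlier results of these data known. Named in the text were the 3 most abundant members of each class, members called between coats, the 3 largest called rises and falls in a comparison and fixed context genes; other called members, Hist3h2bb-ps, Trim17 and extremes of a range were named after their values were seen. Motifs were counted in GENCODE M21 transcripts (GRCm38) and RefSeq promoters (GRCm38.p6). Tables and figures used Python 3.11.15 (matplotlib 3.10.9, pandas 2.3.3, scipy 1.17.1, numpy 2.4.6).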

Additional observations from a re-analysis of the deposited data

Results flagged for a closer look

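Within the 4 libraries of a replicate number, a library was singled out when its gap to the nearest of the others, over the whole range, passed Dixon's 95% critical value for groups of 4. The 60 groups examined gave 5, and chance gives about 1 in 20. Laminin replicate 1 accounts for 3 of them. Hist3h2ba was at 160.8 CPM there and at 90.9 to 102.8 in the other replicate 1 libraries, Hist1h2bc at 4.48 CPM against 2.79 to 2.89, and the summed H2b level, which Hist3h2ba dominates, at 184.5 CPM against 112.5 to 122.9. Hist1h3g was at 0.552 CPM in PDL replicate 2 against 0.0238 to 0.101 in the other replicate 2 libraries. Hist1h2ae was at 0.845 CPM in Laminin+Myelin replicate 3 against 0.507 to 0.551 in the other replicate 3 libraries.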

How the results depend on the processing

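The replicate block raised the count of members called with Laminin against PDL from 0 to 1 (Hist3h2ba, whose change is given in the report with its left-out libraries) and changed no other count of members between coats. The block together with a left-out library gave a count of 1 in 9 cases. These were Hist3h2ba with Laminin against PDL (without Laminin 2 or 3), a fall of Hist1h3g in 5 comparisons without PDL 3 (between -3.03 and -1.69), and a fall of Hist2h4 with all coats against PDL without Laminin 2 (-1.18) or Myelin 3 (-1.22). The cause was not tested. Without the block, leaving out a library kept a count of 0 in all 10 coat comparisons, and gave 1 to 8 members called between numbers 2 and 1, 8 to 13 between 3 and 1, and 0 to 1 between 3 and 2. RLE size factors, DESeq2 and no filter kept all counts between coats at 0.

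Small coat changes changed sign, none of them called. Leaving out 1 library gave -0.033 to 0.053 for Hist2h2be with Laminin, -0.12 to 0.13 for Hist3h2a with Myelin, -0.059 to 0.16 for Hist3h2a with Laminin+Myelin, and -0.0018 to 0.11 for Hist3h2ba with Laminin+Myelin. With the replicate block as well, Hist2h2be with Laminin was -0.0088 without Laminin 1. Hist3h2a with Myelin was then -0.0059 without Myelin 1, -0.0056 without PDL 1 and -0.037 without PDL 3, and with Laminin+Myelin -0.087 without Laminin+Myelin 3. Hist3h2ba with Laminin+Myelin was -0.018 without Laminin+Myelin 3 and -0.0017 without PDL 1.

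Class sums, as log2 ratios, moved by more than their spread when the most abundant member was left out. Without Hist3h2a, H2a went from -0.27 to 0.58 (2 against 1) and from -0.37 to 0.48 (3 against 1). Without Hist3h2ba, H2b went to 0.17 and 0.19 in these, and to 0.043, -0.025 and -0.060 with Laminin, Myelin and Laminin+Myelin against PDL. Without Hist1h3e, H3 was 1.24 (3 against 1), and without Hist1h4i, H4 was 0.78 (2 against 1). Depth limits most members: 52 of 59 averaged under 1 CPM, with a median count of 5 a library.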
